A study of Mus musculus with 14 samples.

Results

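The genes described here are 32 genes that have been reported as, or are predicted to be, targets of the miR-17 family of microRNAs. They were taken as a list of symbols, 32 of the 21900 protein-coding genes of the gene table used, and were looked up in each file by coordinates. The study used LEPC, a mouse cell line of strain C57BL/6 at 3 passages, whose name the labels do not expand. Its 3 conditions were a control, scr, cells that overexpress miR-93-5p, and cells that overexpress a mutated miR-93-5p, called mutant below, whose sequence the labels do not give. Each condition had 1 RNA-seq library and 1 library of mRNA recovered with the microRNA, called the pulldown below. The series text mentions biotin for the miR-93-5p group. The scr and miR-93-5p cells also had 1 chromatin immunoprecipitation library each for H3K4me3, H3K27me3 and H3K9me3, and their 2 input libraries were not analysed here. All of this is 1 cell line, and how the microRNAs were introduced is not given in the labels. The level of mature miR-93-5p was not analysed here. With 1 library per group there was no replicate error and no test, and each difference below is a difference between libraries.

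A microRNA is loaded into an Argonaute protein and guides it to mRNAs, mostly by pairing of its seed, bases 2 to 8, with sites in the 3′ untranslated region. The bound mRNA is then translated less and is often degraded faster, and a single site usually lowers an mRNA only modestly. The miR-17 family arose by duplication and is encoded in several clusters, is often overexpressed in tumours, and is known for targeting regulators of the cell cycle, apoptosis, autophagy and TGF-beta signalling. A pulldown with a tagged microRNA recovers mRNAs bound to it, so a direct target lowered in level would be higher in the pulldown and lower in RNA-seq.

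The mature sequences of the family are shown because all 6 carry the same seed, so that a site for one is a seed site for each of the others. They are RefSeq sequences on GRCm38.p6, written 5′ to 3′, with the seed in capitals, and the mRNA letters that pair with this seed are GCACUUU.
mmu-miR-93-5p: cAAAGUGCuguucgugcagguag
mmu-miR-106b-5p: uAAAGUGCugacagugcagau
mmu-miR-17-5p: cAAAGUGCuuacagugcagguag
mmu-miR-20a-5p: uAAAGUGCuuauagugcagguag
mmu-miR-20b-5p: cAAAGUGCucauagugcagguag
mmu-miR-106a-5p: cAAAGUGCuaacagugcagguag
miR-93-5p (chr5:138165574-138165596, minus strand) and miR-106b-5p (chr5:138165787-138165807, minus strand) lie in one cluster. Compared base by base from the 5′ end, miR-93-5p had the same base as miR-20b-5p at 20 positions, as miR-17-5p, miR-20a-5p and miR-106a-5p at 19, and as miR-106b-5p at 16. The differences from miR-93-5p lie outside the seed. Seed sites in the mRNAs were not searched.

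RNA values are FPKM (fragments per kilobase of transcript, scaled to library size) of the locus assembled in each library that matched the gene, with the lower and upper bounds deposited for it. Those bounds and all intervals below cover counting error only. Ratios are log2 of FPKM plus 1, given as miR-93-5p over scr and over mutant. A member counts as measured in an assay when a locus was matched in all 3 libraries and the mean was at least 1 FPKM. From the bounds, the RNA-seq loci represent 14589704 to 19513879 fragments per library and the pulldown loci 3814082 to 5855469, lowest in the miR-93-5p pulldown. Such numbers fall below the real ones where bounds are wider. The libraries matched 29 or 30 of the 32 members in RNA-seq, and in the pulldowns 23 for scr, 18 for miR-93-5p and 22 for mutant. Epithelial keratins were abundant, with Krt8 at 658, 229.7 and 283 FPKM in RNA-seq (here and below in the order scr, miR-93-5p, mutant). Cdh1 (E-cadherin) stood at 30.7, 1.52 and 3.87 FPKM, and the hepatocyte factor Hnf4a at 40.6, 7.22 and 27.4. Over whole marker lists, 3 of 5 epithelial genes were measured and summed to 995, 432 and 540.1 FPKM. Of the others, Krt19 had a matched locus in miR-93-5p (418 FPKM) and mutant (522 FPKM) and Epcam in scr (0.840 FPKM). Of hepatocyte and progenitor markers 3 of 5 were measured (579, 1094 and 1111 FPKM), of leukocyte markers 1 of 3 (7.63, 1.16 and 1.82), of mesenchymal markers 1 of 3 (1061, 711 and 784), and none of the 3 endothelial genes had a matched locus. Most of the hepatocyte and progenitor sum was Spp1, at 531, 1076 and 1077 FPKM, while Hnf4a was lowest in miR-93-5p. The parts of these marker differences in the members' differences were not tested.

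In RNA-seq 23 of the 29 measured members lay within 1.5-fold of scr in miR-93-5p. In bulk RNA a change in the share of cells of one kind and a change in the RNA of each cell cannot be told apart. Of the 29 members measured none reached a 2-fold lower level in miR-93-5p against both scr and mutant, beside 0.890% of 8880 genes, and none was 2-fold higher, against 0.653%. At 1.5-fold there was also none in either direction, against 2.25% lower and 2.52% higher over all genes. By direction alone 6 members were lower than in both (Fyco1, Map3k2, Mapk9, Nr2c2, Tusc2 and Txnip), against 27.7% of all genes, and 8 were higher, against 33.5%. The members' median ratio was 0.039 over scr and 0.012 over mutant, beside 0.031 and 0.015 for all genes. Beside FPKM, which depends on the transcript length assembled in each library, the number of fragments whose counting error gives the deposited bounds was used, called implied fragments. It follows the width of the bounds as well as the level. Vim had 57408 implied fragments in scr and 2224 in miR-93-5p, at 1061 and 711 FPKM. A sign that turns on this measure shows dependence on the measure and does not decide the direction. On implied fragments the ratio over scr changed sign for 5 of the 29 members, Arid4b, Crim1, Mapk9, Nr2c2 and Ulk1, and the ratio over mutant for 9.

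**Figure D1:**
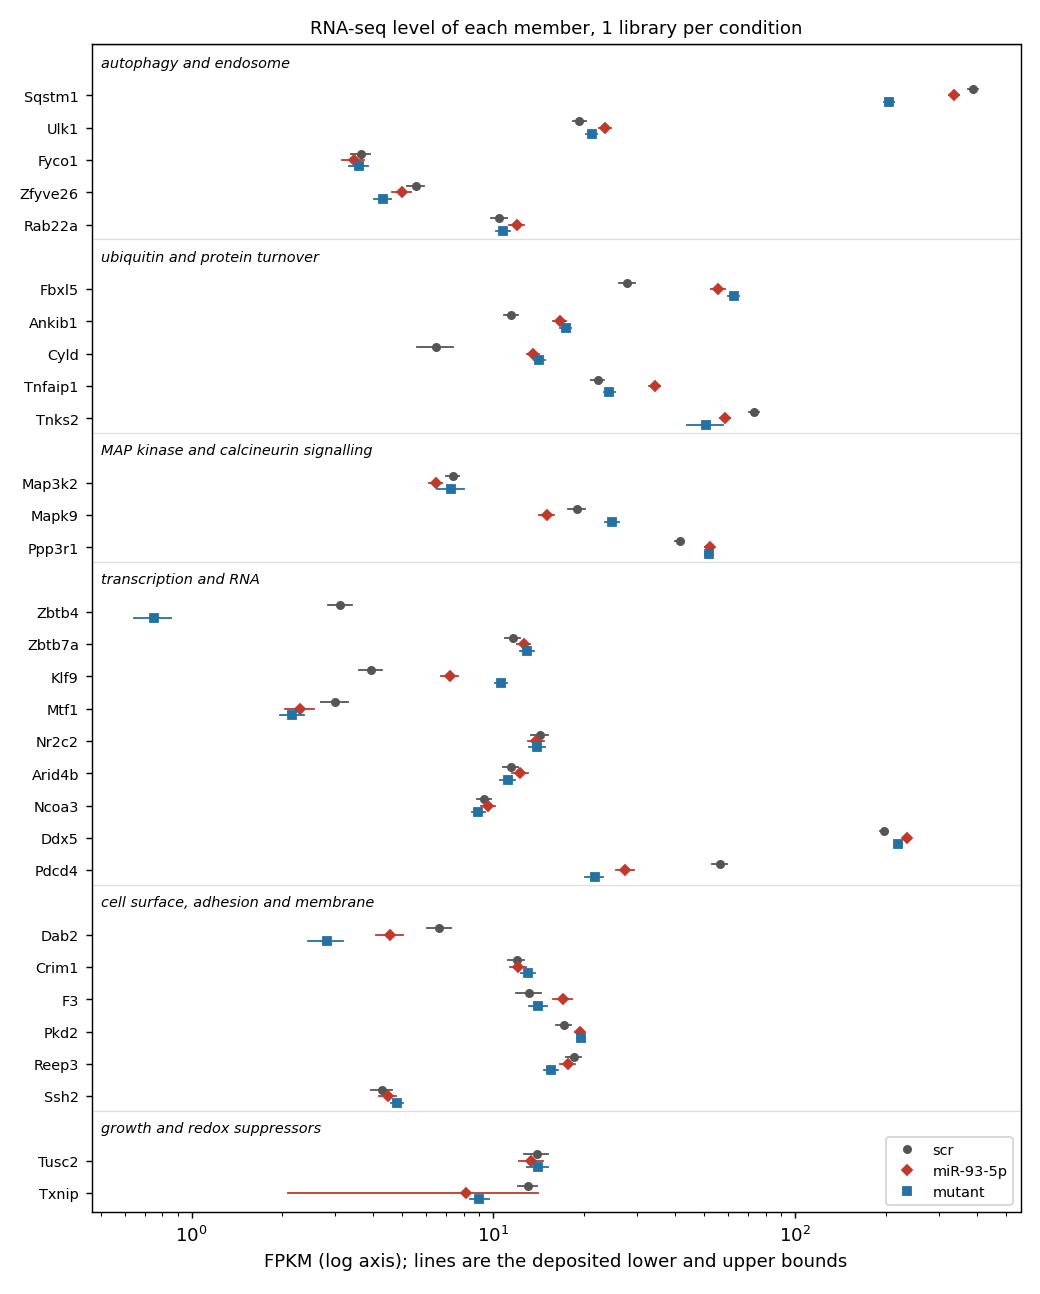
RNA-seq FPKM of the members in scr, miR-93-5p and mutant, grouped by role, on a log axis; points are single libraries and lines the deposited lower and upper bounds. The points lie close together for most members, while Pdcd4 stands highest in scr and Fbxl5, Cyld and Klf9 stand lowest in scr.

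The autophagy and endosome members differed little between scr and miR-93-5p. Sqstm1, which encodes the autophagy receptor p62, stood at 390.2 FPKM (375 to 405) in scr, against 336 (323 to 349) in miR-93-5p and 206 (198 to 213) in mutant, ratios of -0.21 over scr and 0.71 over mutant. The mutant library is the low one, and miR-93-5p lies between the others. Ulk1, the kinase that starts autophagy, stood at 19.3, 23.5 and 21.2 FPKM. Rab22a, a small GTPase of early endosomes, stood at 10.5, 12 and 10.8 FPKM. Both were highest in miR-93-5p, by ratios of 0.27 and 0.18 over scr, but on implied fragments Ulk1 stood at -0.09 over scr. Zfyve26, a protein of endosomal and lysosomal membranes, stood at 5.55, 4.97 and 4.30 FPKM, and Fyco1, an adaptor for transport of autophagosomes along microtubules, at 3.63, 3.45 and 3.59. The Fyco1 ratios were -0.06 over scr and -0.04 over mutant.

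Among members of ubiquitin signalling and protein turnover, 2 were about 2-fold higher by FPKM in both overexpression libraries than in scr. Fbxl5, the iron-sensing subunit of an SCF ubiquitin ligase, stood at 27.7 FPKM (26.0 to 29.4) in scr, against 55.6 (52.7 to 58.5) in miR-93-5p and 62.7 (59.9 to 65.4) in mutant. Cyld, a deubiquitinase that restrains NF-kappaB signalling, stood at 6.48 FPKM (5.60 to 7.37), 13.6 and 14.2. The scr library is the low one for both, and miR-93-5p and mutant differed by ratios of only -0.17 and -0.06. On implied fragments the ratios over scr were 0.40 for Fbxl5 and 3.18 for Cyld, so the size of the difference depends on the measure. Ankib1, a ubiquitin ligase of the RBR type, was also lowest in scr, at 11.5, 16.6 and 17.4 FPKM. Tnfaip1, an adaptor of cullin ligases that act on RhoA, stood at 22.2 FPKM (21.1 to 23.2), 34.3 (32.7 to 35.8) and 24.3 (23.3 to 25.2). By FPKM it was the member highest in miR-93-5p against both, by 0.61 (0.52 to 0.69) over scr and 0.48 (0.40 to 0.56) over mutant. On implied fragments these Tnfaip1 ratios were only 0.09 and 0.02. Tnks2, a poly-ADP-ribosylating tankyrase, stood at 73.4, 58.8 and 50.7 FPKM. Fbxo31, an F-box protein, was not placed in RNA-seq.

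Of the kinase and phosphatase members, Mapk9 had its lowest FPKM in miR-93-5p. Mapk9, the stress kinase JNK2, stood at 18.9 FPKM (17.7 to 20.2) in scr, against 15.0 (14.2 to 15.9) in miR-93-5p and 24.8 (23.5 to 26.0) in mutant. Its ratios were -0.31 (-0.43 to -0.19) over scr and -0.68 (-0.79 to -0.58) over mutant, so the fold over scr was under 1.5. On implied fragments the direction turned, to 0.40 over scr and 0.03 over mutant. Map3k2, the kinase MEKK2 upstream of the MAP kinases, stood at 7.34, 6.45 and 7.25 FPKM, ratios of -0.16 and -0.15. Ppp3r1, the regulatory subunit of calcineurin, stood at 41.5, 52.2 and 51.7 FPKM, with scr as the low library.

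Among regulators of transcription and RNA, Pdcd4 was lower and Klf9 higher than in scr, each by more in mutant than in miR-93-5p. Pdcd4, which blocks the translation helicase eIF4A and is known as a tumour suppressor, stood at 56.5 FPKM (53.3 to 59.8) in scr, against 27.4 (25.5 to 29.4) in miR-93-5p and 21.7 (20.2 to 23.2) in mutant. Its ratio was -1.02 (-1.14 to -0.89) over scr and 0.33 (0.19 to 0.46) over mutant. By FPKM it was the only member 2-fold lower than in scr alone, as were 3.80% of all genes, and mutant was lower still. On implied fragments the Pdcd4 ratio over scr was -0.64. The only member 2-fold lower than scr on that measure was Txnip, against 7.66% of all genes. Klf9, a Krüppel-like factor, stood at 3.93, 7.17 and 10.6 FPKM. Zbtb4, a zinc finger repressor that binds methylated DNA, had a matched locus in scr at 3.12 FPKM (2.84 to 3.39) and in mutant at 0.75 (0.644 to 0.857), and none in miR-93-5p. The level that remained in miR-93-5p is given below from shorter loci. The other 6 lay between -0.28 and 0.25 over scr. They were Zbtb7a, a repressor of the POK family (11.6, 12.6 and 13.0 FPKM), Mtf1, the metal-response factor (3.00, 2.29 and 2.16), and Nr2c2, the orphan receptor TR4 (14.3, 13.9 and 14). Arid4b, a subunit of a Sin3 repressor complex (11.4, 12.2 and 11.2 FPKM), Ncoa3, a nuclear receptor coactivator (9.32, 9.60 and 8.93), and Ddx5, an RNA helicase (197, 235 and 220.2), were highest in miR-93-5p, where Arid4b stood at -0.30 over scr on implied fragments.

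The surface, adhesion and membrane members and the growth suppressors gave no 1.5-fold difference from both other libraries. Dab2, an endocytic adaptor, stood at 6.63 FPKM (6.04 to 7.22) in scr, against 4.55 (4.09 to 5.01) in miR-93-5p and 2.81 (2.44 to 3.18) in mutant, with mutant the lowest. F3, the tissue factor that starts coagulation, stood at 13.2, 17.0 and 14.1 FPKM. Crim1, a transmembrane protein that binds BMPs (11.9, 12.1 and 13.1 FPKM), Pkd2, the polycystin-2 channel (17.1, 19.3 and 19.6), Reep3, a protein of the endoplasmic reticulum (18.5, 17.7 and 15.5), and Ssh2, a cofilin phosphatase (4.28, 4.47 and 4.81), lay between -0.06 and 0.17 over scr. On implied fragments Pkd2 stood at 1.30 over scr and 0.13 over mutant. Itgb8, the integrin beta-8 chain, had no locus in any RNA library. Tusc2, a mitochondrial tumour suppressor, stood at 13.9, 13.4 and 14 FPKM, a ratio of -0.05 over scr. Txnip, the inhibitor of thioredoxin, stood at 13.0 FPKM (12.1 to 14) in scr, against 8.10 (2.09 to 14.1) in miR-93-5p and 9.0 (8.34 to 9.65) in mutant. Its miR-93-5p bounds include the levels of both other libraries.

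Both overexpression libraries were also set against scr alone, which they share as the control. At 1.5-fold over scr, 4 members were higher (Tnfaip1, Cyld, Fbxl5 and Klf9, against 11.4% of all genes) and 2 lower (Txnip and Pdcd4, against 9.48%). In mutant over scr, 3 members were 2-fold higher, Cyld, Fbxl5 and Klf9, against 2.65% of all genes. Dab2 and Pdcd4 were 2-fold lower, against 3.58%. What sets scr apart from both other libraries, and how much of it belongs to the microRNA, cannot be told apart with 1 library each.

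A locus was matched in all 3 pulldowns about as often for the members as for other genes. This counts matched loci, with scr and mutant included, and does not measure recovery by miR-93-5p. Of the 29 members measured in RNA-seq, 16 were measured in all 3 pulldowns, beside 52.9% of all genes measured in RNA-seq, and with Fbxo31 the pulldown measured 17. No member was at least 2-fold higher in the miR-93-5p pulldown than in both other pulldowns, against 1.64% of 5246 genes, and 1 was 2-fold lower, Pdcd4, against 11.9%. By direction alone 3 were higher (Tusc2, Rab22a and Reep3, against 15.1%) and 11 lower (against 48.6%). The miR-93-5p pulldown stood low as a whole: all genes had a median of -0.48 over scr and -0.43 over mutant, and the members one of -0.46 and -0.63. Relative to the median gene, 3 members, Tusc2, Rab22a and Reep3, were at least 1.5-fold higher than in both, against 11.5% of all genes. None was 1.5-fold lower on that scale, against 11.3%, or 2-fold lower, against 4.73%, so the count for Pdcd4 holds only for FPKM as deposited.

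**Figure D2:**
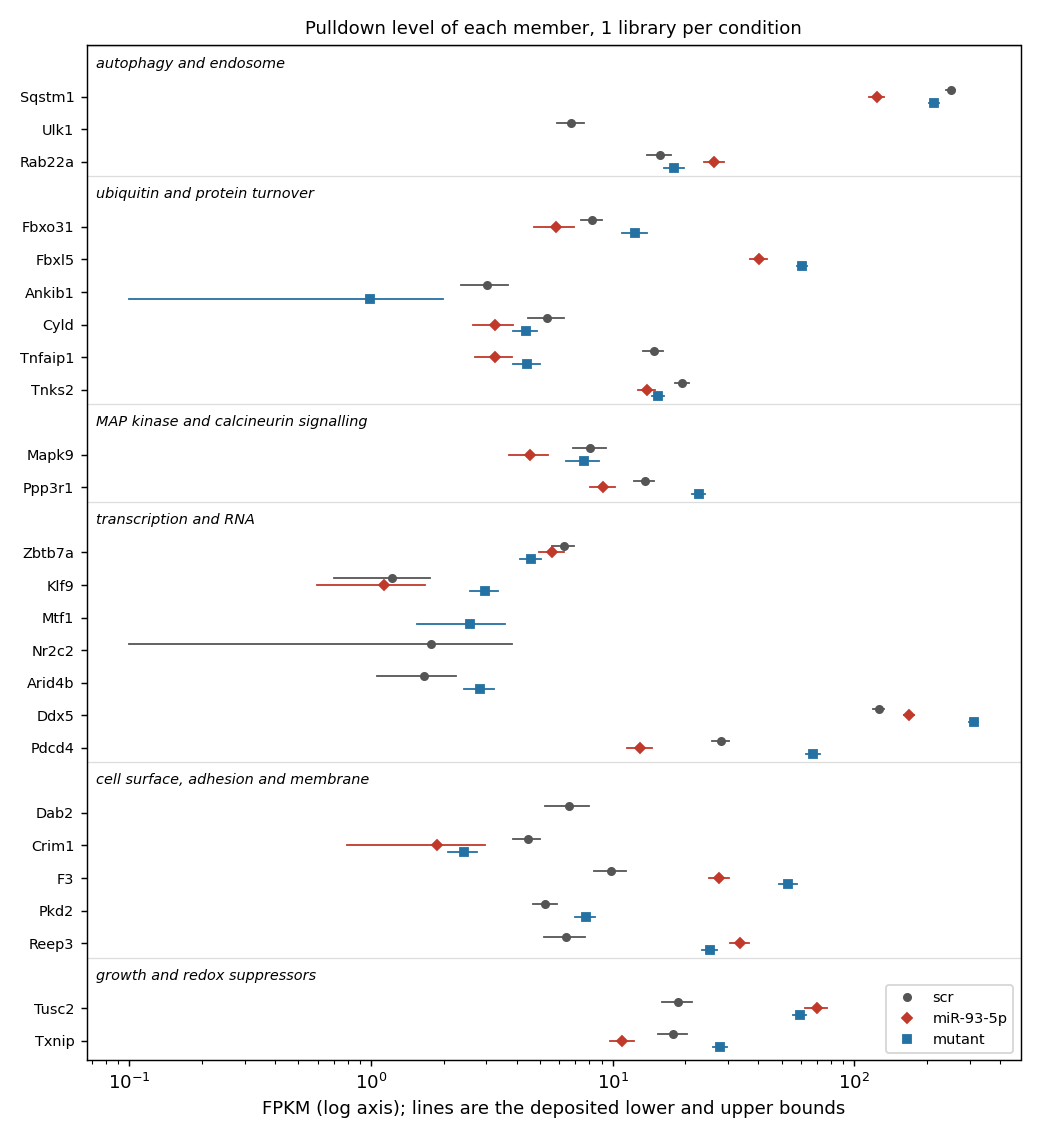
Pulldown FPKM of the members in scr, miR-93-5p and mutant, grouped by role, on a log axis; points are single libraries and lines the deposited bounds. Tusc2 and Reep3 are low in scr and high in both other pulldowns, Rab22a is highest in miR-93-5p, and Pdcd4 and Sqstm1 are lowest in miR-93-5p.

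Rab22a, Reep3 and Tusc2 stood above both other pulldowns by FPKM, and their mutant levels differed. Rab22a (GRCm38 chr2:173659836-173702186) stood at 15.6 FPKM (13.8 to 17.4) in the scr pulldown, 26.4 (24.0 to 28.7) in miR-93-5p and 18.0 (16.2 to 19.7) in mutant. Its ratios were 0.72 (0.52 to 0.92) over scr and 0.53 (0.35 to 0.71) over mutant, and the bounds of miR-93-5p overlap neither of the others. Reep3 (chr10:67009189-67096988) stood at 6.42 FPKM (5.19 to 7.65), 33.6 (30.6 to 36.6) and 25.2 (23.4 to 27.1), ratios of 2.22 (1.96 to 2.48) over scr and 0.40 (0.24 to 0.56) over mutant. Tusc2 (chr9:107563255-107566108) stood at 18.6 FPKM (15.9 to 21.2), 69.9 (62.6 to 77.1) and 59.6 (55.9 to 63.3), ratios of 1.86 (1.62 to 2.10) and 0.23 (0.06 to 0.39). For Reep3 and Tusc2 the mutant pulldown was nearly as high as the miR-93-5p pulldown, and the bounds of Tusc2 overlap between them. On implied fragments the Tusc2 ratio over mutant turned to -0.65, and those of Rab22a and Reep3 stayed above 0 against both. F3 was higher still in mutant by FPKM, at 9.85, 27.6 and 53.3, but its ratio over mutant was 0.61 on implied fragments. Over scr alone 3 members were 2-fold higher in miR-93-5p, F3, Reep3 and Tusc2, against 11.8% of all genes. In mutant over scr 5 were 2-fold higher, Ddx5, F3, Pdcd4, Reep3 and Tusc2, against 21.8%.

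Members lower in the miR-93-5p pulldown were led by Pdcd4. Pdcd4 stood at 28.0 FPKM (25.7 to 30.3) in scr, against 13.0 (11.5 to 14.5) in miR-93-5p and 67.6 (63.3 to 71.9) in mutant, ratios of -1.05 (-1.24 to -0.86) and -2.29 (-2.47 to -2.12). Relative to the median gene its ratio over scr was -0.57. Sqstm1 stood at 251, 124 and 214 FPKM, Mapk9 at 8.08, 4.56 and 7.60, and Txnip at 17.8, 11 and 27.8. These 4 reached a 1.5-fold lower level than both, beside 24.0% of all genes. On implied fragments Pdcd4 and Sqstm1 were still below both, Mapk9 stood at 0.09 over scr and 0.23 over mutant, and Txnip at 1.08 over scr and -0.89 over mutant. Tnfaip1 stood at 14.8, 3.25 and 4.44 FPKM, with scr as the high library. Against scr alone Pdcd4, Sqstm1 and Tnfaip1 were 2-fold lower, beside 33.5% of all genes.

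The remaining measured members were not 1.5-fold from both other pulldowns in one direction. Fbxo31 stood at 8.23, 5.83 and 12.4 FPKM in the pulldowns, Ppp3r1 at 13.5, 9.14 and 22.7, and Ddx5 at 126, 168 and 311. Mutant had the highest FPKM for these, with ratios over mutant of -0.97 for Fbxo31, -1.22 for Ppp3r1 and -0.88 for Ddx5. The Ddx5 ratio was 0.65 on implied fragments. Tnks2 (19.4, 13.8 and 15.4 FPKM), Cyld (5.36, 3.26 and 4.36), Crim1 (4.44, 1.88 and 2.41) and Zbtb7a (6.26, 5.62 and 4.59) were highest in scr. Klf9 stood near the minimum, at 1.22, 1.13 and 2.96 FPKM, and its ratio over mutant turned from -0.89 to 0.80 with the summed fragments described below. Ulk1 (6.74 FPKM), Dab2 (6.61) and Nr2c2 (1.77) had a matched locus in scr alone. Pkd2 (5.27 and 7.73 FPKM), Arid4b (1.66 and 2.83) and Ankib1 (3.02 and 0.993) had one in scr and mutant, Fbxl5 in miR-93-5p and mutant (40.3 and 60.5) and Mtf1 in mutant alone (2.57). Fyco1, Itgb8, Map3k2, Ncoa3, Ssh2, Zbtb4 and Zfyve26 had none, which is a statement about matched loci and not about the absence of fragments. The miR-93-5p pulldown was assembled into more loci, 18031 against 15302 in scr and 14815 in mutant, of which 5749 matched a gene against 8499 and 8379.

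No member combined recovery in the pulldown with a lower RNA-seq level by the rule used. Of 16 members measured in both assays, 0 stood 1.5-fold above both others in the miR-93-5p pulldown and 1.5-fold below both others in its RNA-seq, as did 0.0426% of 4699 genes. At 2-fold there were also 0 (0.00% of all genes). By direction alone 1 member qualified, Tusc2, against 4.21%. The RNA-seq bounds of Tusc2 overlap in all 3 conditions, and its ratios of -0.05 over scr and -0.06 over mutant are within counting error. In the pulldown its ratio over mutant was negative on implied fragments, so that it did not qualify on that measure. Rab22a and Reep3, the other members higher in the pulldown, were not lower in RNA-seq against both: Rab22a stood at 0.18 and 0.14, and Reep3 at -0.06 and 0.18. Mapk9, lower than both others by FPKM in RNA-seq, was also lower by FPKM in the pulldown, and both directions turned on implied fragments.

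**Figure D3:**
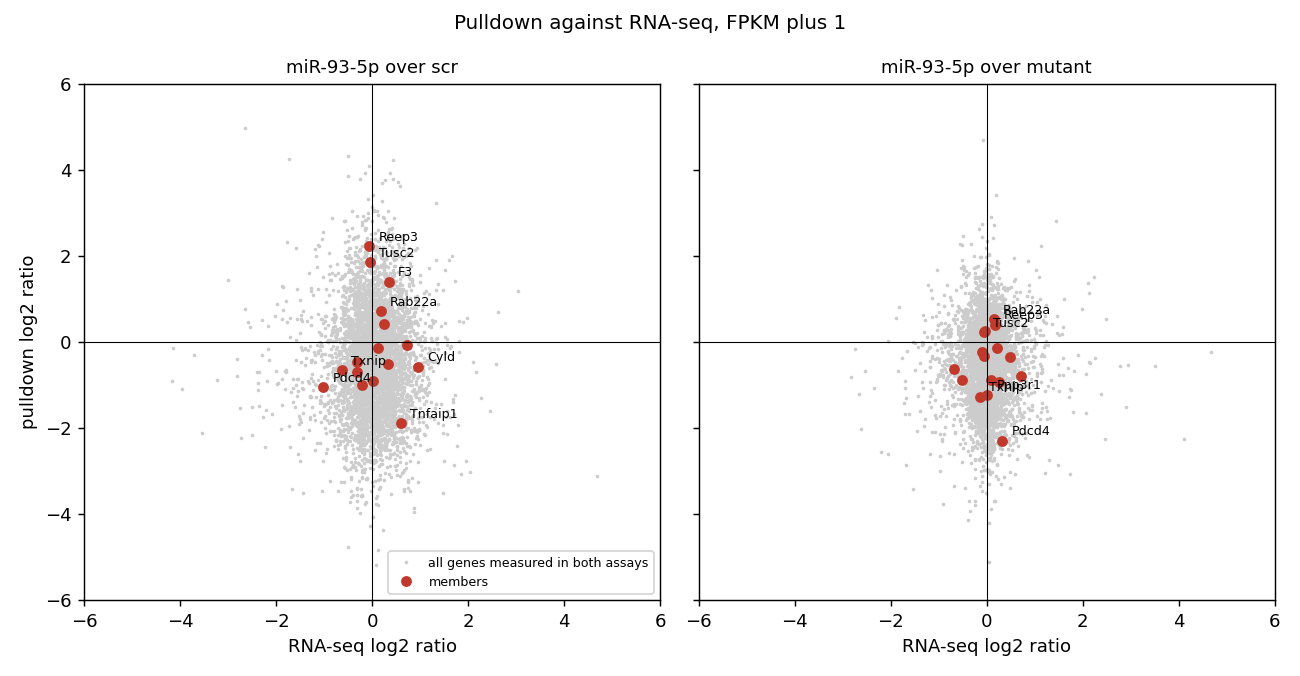
Pulldown log2 ratio of miR-93-5p against its RNA-seq log2 ratio, over scr (left) and over mutant (right), for the 16 members (large points) and all 4699 genes measured in both assays (small points), on FPKM plus 1. No member lies far to the left and high in both panels; Reep3 and Tusc2 are high over scr at an RNA-seq ratio near 0.

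Matching 1 locus to each gene left 15 members out of the pulldown comparison, so a second measure was taken after the data had been seen. The implied fragments of each locus lying inside a gene by at least 0.5 of its length were summed, scaled to a median ratio of 1 between libraries, and compared with 10 added. This measured 30 members in each assay. In the pulldown 7 members were then at least 1.5-fold higher in miR-93-5p than in both others, against 13.9% of 10286 genes, and 5 were lower (Sqstm1, Fbxo31, Crim1, Nr2c2 and Ssh2), against 18.8%. The Nr2c2 value rests on the assignment of loci: 2 miR-93-5p loci of 14.7 and 53.9 fragments lie wholly inside Nr2c2 and were given to the overlapping gene Mrps25, which left 0. The Ssh2 value rests on short loci inside a long gene, of 336 to 701 bp in miR-93-5p and 678 to 1081 bp in mutant. Whether they belong to Ssh2 mRNA was not tested. At 2-fold 3 members were higher, Map3k2, Zfyve26 and Fyco1, against 7.16%. Median ratios of the members were 0.25 over scr and 0.31 over mutant, beside -0.04 and -0.01 for all genes.

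The 7 members higher on this measure include 4 with no matched pulldown locus in any library. Map3k2 (chr18:32163089-32236751) had 67.5 implied fragments in scr, against 151 in miR-93-5p and 52.9 in mutant, scaled ratios of 1.69 (1.32 to 2.06) over scr and 1.99 (1.59 to 2.38) over mutant. Zfyve26 had 66.8, 90.9 and 44.3, and its ratios were 1.01 (0.60 to 1.42) and 1.5 (1.06 to 1.95). Fyco1 had 9.59, 22.8 and 11.9, ratios of 1.24 (0.59 to 1.88) and 1.07 (0.43 to 1.72). Each of these was highest in miR-93-5p, with counts that are low for Fyco1. Ankib1 had 81.7, 101.5 and 65.3 fragments, Rab22a 305, 485 and 424, and Klf9 105, 241 and 215. Zbtb4 had 14, 36.2 and 31.9, ratios of 1.49 (0.90 to 2.09) over scr and 0.69 (0.13 to 1.24) over mutant. Scaling matters here, since the unscaled Zbtb4 counts of miR-93-5p and mutant are close.

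With the summed fragments 1 member met the joint rule, Zbtb4, out of 29 measured in both assays, against 1.03% of 8851 genes. In RNA-seq Zbtb4 had 546 implied fragments in scr, with 48.0 in miR-93-5p and 198 in mutant. The scaled ratios were -3.29 (-3.65 to -2.94) over scr and -1.52 (-1.90 to -1.13) over mutant, and mutant over scr was -1.78. Its level was thus lowest in miR-93-5p and intermediate in mutant. The 48.0 fragments lay in 3 short loci of 0.553 to 0.648 FPKM. In the pulldown the fragments lay toward the 3′ end of the gene, in 1 short locus per library, ending 4.8, 2.2 and 2.1 kb before the gene end in scr, miR-93-5p and mutant. Those loci stood at 1.2 FPKM (0.583 to 1.92) in scr, against 3.02 (2.01 to 4.02) in miR-93-5p and 0.848 (0.547 to 1.15) in mutant. The scr locus overlaps neither of the others, so the 3 values are not of the same stretch. At 2-fold Zbtb4 no longer met the joint rule, because of its ratio over the mutant pulldown.

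By direction alone the joint rule took 4 members on this measure, Zbtb4, Map3k2, Fyco1 and Mtf1, against 10.2% of all genes. The RNA-seq ratios of Map3k2 were -0.19 over scr and -0.14 over mutant; for Fyco1 they were -0.51 and -0.05. In RNA-seq 2 members, Zbtb4 and Txnip, were 2-fold lower than in both, against 5.75% of 9905 genes. The Txnip value rests on wide bounds, which give only 7.28 implied fragments in miR-93-5p beside 772 in scr and 761 in mutant, while its FPKM ratios were -0.62 over scr and -0.14 over mutant.

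**Figure D4:**
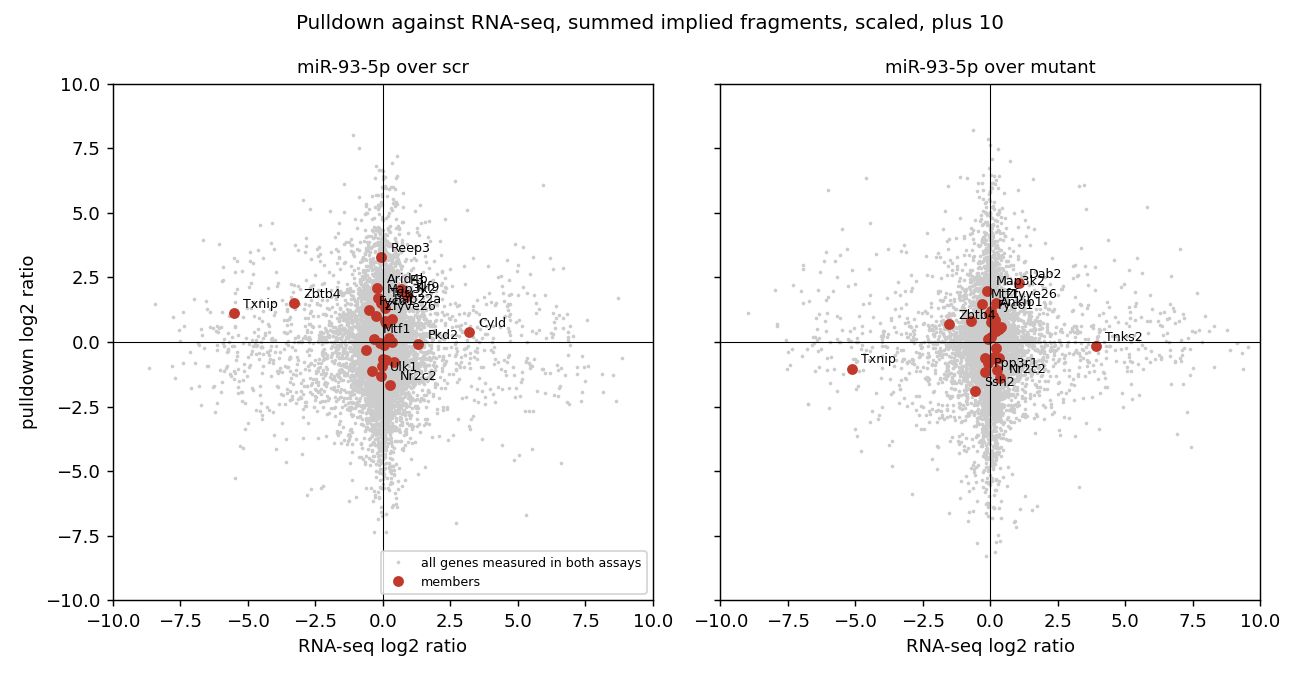
Pulldown log2 ratio of miR-93-5p against its RNA-seq log2 ratio on summed implied fragments, over scr (left) and over mutant (right), for 29 members (large points) and 8851 genes (small points). Zbtb4 lies to the left and above 0 in both panels, and Map3k2 lies high near an RNA-seq ratio of 0.

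The histone marks of the members in scr and miR-93-5p were compared by the deposited peaks. H3K4me3 marks active starts, H3K27me3 is the Polycomb mark of silenced genes, and H3K9me3 marks heterochromatin and repeats. An H3K4me3 peak lay within 1 kb of the start in 25 of 27 members with a known strand in both conditions, against 52.9% of all genes in scr and 52.6% in miR-93-5p. The exceptions were Itgb8, which had no RNA locus either, and Pdcd4, whose peak lay downstream of the annotated start. Dab2, Ddx5, Fyco1, Ppp3r1 and Ssh2 had no named reference locus, and their start was taken from the locus assembled in scr RNA-seq. For these the share over all genes, which rests on reference loci of genes with or without RNA, is not a like comparison. H3K27me3 overlapped 2 member loci of 31 in scr, Zbtb4 and Pdcd4 (20.4% of all genes), and 1 in miR-93-5p, Zbtb4 (19.0%). H3K9me3 overlapped 9 in scr (15.4%) and 8 in miR-93-5p (20.2%), of which 7 were the same. The members' genes are longer, with a median span of 46.3 kb against 17.1 kb over all genes. The part of gene span in these shares was not tested. Crim1 had 1 H3K9me3 peak of 3190 bp in scr and 1 of 6347 bp in miR-93-5p, and Map3k2 had 2 over 3748 bp and 4 over 6719 bp. Reep3 went the other way, with 1 of 1310 bp and 1 of 891 bp. Over the whole lists H3K9me3 peaks covered 21.6 Mb in scr and 39.2 Mb in miR-93-5p, and its part in these differences was not tested. The mm9 reference locus of Fbxl5 runs past the end of its RNA-seq locus, and part of its H3K9me3 peaks lie beyond it. Peaks in scr alone lay in Pdcd4 and Nr2c2 (2.37% of all genes) and in miR-93-5p alone in Ncoa3 (7.21%).

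Zbtb4 differed between the conditions at its start. Its H3K4me3 peak spanned 2338 bp in scr, from -403 to 1934 bp around the start (mm9 chr11:69579413-69597525, plus strand), and 1030 bp in miR-93-5p, from -70 to 959 bp. It was the only one of 25 members whose peak at the start was at least 2-fold narrower in miR-93-5p, against 0.220% of 7718 genes with a peak in both. The median width over the whole lists was 2377 bp in scr and 2274 bp in miR-93-5p. The authors' scores for these peaks were 2243.46 and 318.73, each within its own list. Taken across the lists, a 2-fold drop in score from scr was seen for 1.09% of the 7718 genes. Where the scr score was under 3100, as for Zbtb4, such a drop was less rare, at 7.56% of 1032 genes. Of the 2 members in that class, Zbtb4 alone had it. The share of narrower peaks in that class was not tested. Of 30 members with an H3K4me3 peak, 28 scored 3100 or above in each list, and the remaining member was Dab2. Zbtb4 was also the only member with H3K27me3 within 1 kb of the start in scr alone, as were 6.56% of all genes. H3K27me3 formed 3 peaks in Zbtb4 in scr, of 1896, 1069 and 1215 bp, and 1 of 999 bp in miR-93-5p. Over the whole lists H3K27me3 peaks were narrower in miR-93-5p, with a median of 473 bp against 1049 bp in scr, and its part in the Zbtb4 difference was not tested.

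Pdcd4 (mm9 chr19:53966720-54004351, plus strand) had its H3K4me3 away from the annotated start. The peak lay 9.9 to 13.9 kb downstream in scr (4011 bp) and 10.0 to 14.9 kb in miR-93-5p (4949 bp), with a score of 3100 in both lists. H3K27me3 was present in scr alone, as 2 peaks of 881 and 3507 bp, 4.5 to 8.9 kb from the start, and 5.07% of all genes had H3K27me3 in scr alone. The matched RNA-seq locus of Pdcd4 spanned 25.9 kb in each library and began under the H3K4me3 peak. Both H3K27me3 peaks thus lay inside the reference locus but before the assembled RNA. A single H3K9me3 peak of 1553 bp lay 31.7 to 33.3 kb from the start, in scr alone. The scr cells had the higher Pdcd4 mRNA level of the 2 conditions, and these peaks.

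**Figure D5:**
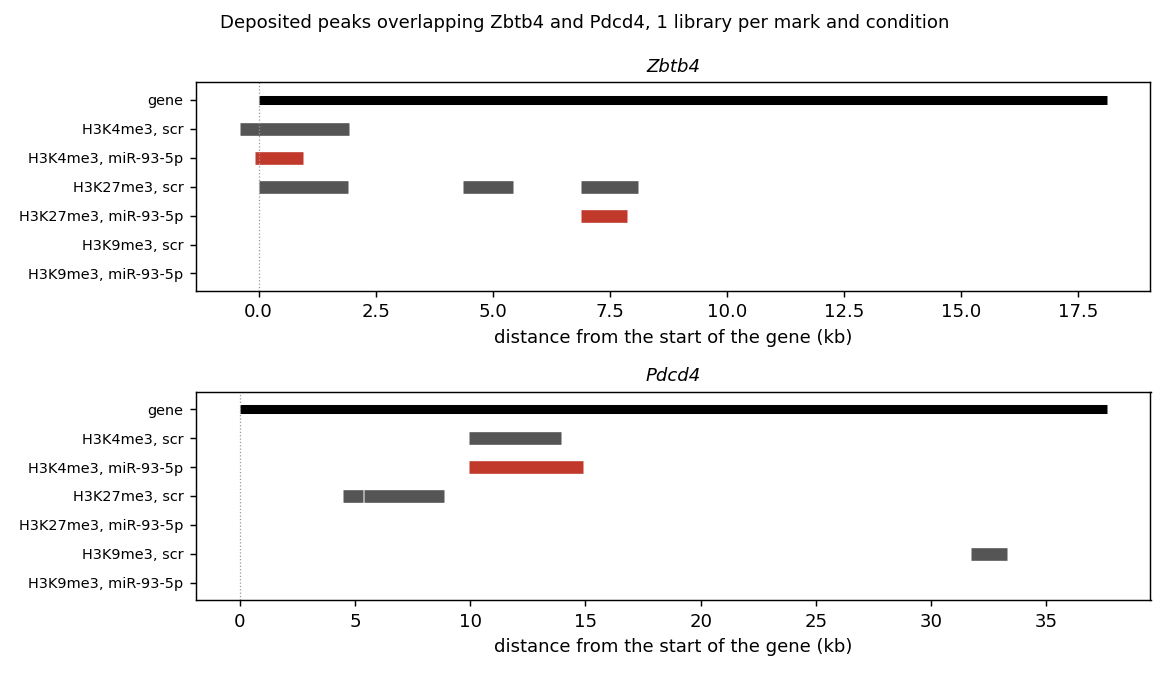
Deposited H3K4me3, H3K27me3 and H3K9me3 peaks overlapping Zbtb4 and Pdcd4 in scr and miR-93-5p, as bars along the distance from the gene start in kb. The H3K4me3 bar of Zbtb4 is shorter in miR-93-5p, and the H3K27me3 and H3K9me3 bars of Pdcd4 appear in scr alone.

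The promoters of both genes are shown because the marks of Zbtb4 differ at its start and because H3K4me3 in Pdcd4 lay at the distance of a second start and not at the first. They are RefSeq sequences on GRCm38.p6 from 250 bases before to 50 after each start. Each CG, the dinucleotide that is methylated in mammals, is in capitals.
Zbtb4, chr11:69765662-69765961, plus strand: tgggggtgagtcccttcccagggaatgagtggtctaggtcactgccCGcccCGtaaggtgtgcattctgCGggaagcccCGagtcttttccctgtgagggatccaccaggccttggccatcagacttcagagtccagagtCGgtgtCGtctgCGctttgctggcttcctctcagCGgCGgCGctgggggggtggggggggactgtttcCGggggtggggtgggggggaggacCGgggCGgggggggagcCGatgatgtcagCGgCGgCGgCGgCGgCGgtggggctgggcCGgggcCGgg
Pdcd4, first start, chr19:53891981-53892280, plus strand: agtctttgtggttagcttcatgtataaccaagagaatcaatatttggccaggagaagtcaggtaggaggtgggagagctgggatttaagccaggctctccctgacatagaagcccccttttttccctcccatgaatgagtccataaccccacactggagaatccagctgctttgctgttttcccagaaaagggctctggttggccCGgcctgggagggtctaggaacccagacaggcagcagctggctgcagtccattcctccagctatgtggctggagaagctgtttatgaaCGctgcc
Pdcd4, second start, chr19:53903101-53903400, plus strand: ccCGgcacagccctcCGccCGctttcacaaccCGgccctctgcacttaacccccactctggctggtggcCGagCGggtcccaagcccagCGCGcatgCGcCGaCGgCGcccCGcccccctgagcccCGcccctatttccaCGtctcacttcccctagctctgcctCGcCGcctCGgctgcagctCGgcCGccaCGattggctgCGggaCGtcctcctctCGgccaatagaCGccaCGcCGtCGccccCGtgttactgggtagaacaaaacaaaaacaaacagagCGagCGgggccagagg
Zbtb4 had 22 CG in 300 bases, and 23.1% of 32851 promoters had at least as many. The first Pdcd4 promoter had 2 CG, a number that 85.9% of promoters reach, and the second had 31, reached by 10.6%. The second start lies 11.1 kb after the first, and the H3K4me3 peak lay at about that distance from the start of the mm9 locus in both conditions. Over 28 members with a promoter in the table the median was 25 CG, against 7 over all promoters. CG content was counted on one strand, which gives the same number as the other, and is a description of these windows.

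As a comparison, 40 other genes reported as targets of the family were taken through the same steps. In RNA-seq 0 of 34 measured differed 2-fold from both scr and mutant in either direction, and their median ratio was 0.14 over scr and 0.09 over mutant. In the pulldown 2 of 16 measured were 2-fold higher than in both, E2f1 and Trp53inp1, beside the 1.64% of all genes given above, and 1 was 2-fold lower, Fbxw11, against 11.9%. Their pulldown medians were 0.47 over scr and 0.52 over mutant, where those of all genes were negative. E2f1, a cell cycle transcription factor, stood at 8.71 FPKM (7.61 to 9.81) in the scr pulldown, 78.4 (74.0 to 82.7) in miR-93-5p and 30.7 (28.7 to 32.8) in mutant. Trp53inp1, a p53-induced stress protein, stood at 2.34 FPKM (1.60 to 3.07), 10.3 (9.52 to 11.2) and 3.90 (3.48 to 4.32). Both were highest in miR-93-5p with bounds that overlap neither other pulldown. In RNA-seq E2f1 stood at 22.5, 16.4 and 14.9 FPKM and Trp53inp1 at 18.1, 15.7 and 11.8, lowest in mutant in both cases. Fbxw11, a subunit of an SCF ubiquitin ligase, stood at 7.79, 1.42 and 5.14 FPKM in the pulldowns, and Ccnd1, the cell cycle protein cyclin D1, at 69.7, 31.0 and 46.8. Both were lowest in miR-93-5p. By the joint rule on FPKM 0 of the 16 measured in both assays qualified, also by direction alone, against 4.21% of all genes. By direction on implied fragments 1 of 14 qualified, against 10.6% of all genes. On summed fragments 2 of 33 did, against 10.2%.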

How the data were processed

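The deposited RNA-seq and pulldown values are FPKM of assembled loci, each with its bounds, made by the authors with TopHat2, Cufflinks and Cuffdiff on mm9, per the submitters' processing notes, which also name CASAVA 1.4, Bowtie and MACS and give no settings. Peak lists hold a score per peak, deposited by the authors for each library. Scores were compared within a list only, except for the share of genes with a 2-fold lower H3K4me3 score.

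Gene names for RNA-seq loci and peaks came from mm9 reference loci in the pulldown tables (rows with FPKM 0), and for pulldown loci from a GRCm38.p6 gene table, since their ends lie on that build. Members without a named mm9 locus took their scr RNA-seq locus, where there was one, for peaks and for summed RNA-seq fragments. Matching took mutual best overlaps in which the shared part made up at least 0.5 of the joint length. In RNA-seq 6 members (Dab2, Ddx5, Fbxl5, Fyco1, Ppp3r1 and Ssh2) were instead placed between their neighbours where the span was within 5% of the gene's, a rule chosen after the files were seen. Of 1000 matched genes hidden as a check it placed 716, 713 of them on the same locus.

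Implied fragments (Poisson error, at least 3 per gene) fall below the real number where bounds widen. In the summed measure a locus counts for the gene with which it shares most, and Fbxl5 is lost in the scr pulldown, where its locus runs past the gene. Intervals are at 95%. Marks needed a 1 bp overlap.

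The members and lists were chosen with earlier results of these data known. Every measured member is named, and of the other targets the 4 with the largest ratio over scr. Scripts were tested on simulated data. Python 3.11.15, pandas 2.3.3, numpy 2.4.6 and matplotlib 3.10.9 were used. Alternatives were a pseudocount of 0.1, no minimum, an overlap of 0.9, rescaling, implied fragments, other folds, a peak score of at least 100 and other windows.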

Additional observations from a re-analysis of the deposited data

How the results depend on the processing

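No paired analysis was possible because each group had 1 library, and leaving out a library removes its group. The pulldown medians of the members changed sign with the measure. So did single ratios of at least 1.5-fold by FPKM: with implied fragments 0 of 6 over scr and 1 of 2 over mutant in RNA-seq (Mapk9), and 2 of 10 over scr (Mapk9 and Txnip) and 3 of 9 over mutant (Ddx5, F3 and Mapk9) in the pulldown. With summed fragments none did in RNA-seq, and in the pulldown 1 over scr (Txnip) and 4 over mutant (Ddx5, F3, Klf9 and Mapk9) did. The summed fragments and the placement by overlap alone were chosen after seeing the data. The number of members 2-fold lower than both others in RNA-seq, 0, became 1 with implied fragments (3.75% of all genes) and 2 with summed fragments (5.75%). The RNA-seq median over mutant became 0.13 with implied fragments. In the pulldown the number 2-fold higher, 0, became 3 with summed fragments (7.16% of all genes). The number 2-fold lower, 1, became 0 after rescaling, 0 with an overlap of 0.9, which leaves 8 members, and 4 at 1.5-fold. It stayed 1 with implied fragments (10.1% of all genes) and with summed fragments (12.3%), but the member was Crim1 and Nr2c2 in place of Pdcd4. The pulldown median over scr became 0.24 with implied fragments, 0.018 after rescaling and 0.25 with summed fragments, and that over mutant -0.21 after rescaling, -0.85 with an overlap of 0.9 and 0.31 with summed fragments. The joint count, 0, became 1 by direction alone and 1 with summed fragments. Within 1 kb of the start, H3K27me3 was found in 1 member in scr (10.6% of all genes) and 0 in miR-93-5p (5.58%). H3K9me3 was found there in 0 in each (3.41% and 4.70%). With a score of at least 100, H3K27me3 was found in 0 members in miR-93-5p (6.77% of all genes), and H3K9me3 in 5 in scr (7.47%) and 5 in miR-93-5p (12.0%). Of single ratios, 37 of 58 in RNA-seq and 31 of 34 in the pulldown moved beyond their interval with implied fragments. With summed fragments 35 of 58 and 29 of 34 did. Of the pulldown ratios 31 of 34 did after rescaling, and 2 of 34 with a pseudocount of 0.1. Several members have fewer than 100 summed pulldown fragments, so depth limits those values.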
